A study of Mus musculus with 2 samples.

Results

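The endothelial identity genes are 10 genes that mark the lining of blood vessels: Pecam1, Plvap, Emcn, Ehd3, Egfl7, Esam, Eng, Fabp4, Sox17 and Sox18. They were taken as a list of names and were found by Ensembl identifier among the 43346 Ensembl genes (69691 features in all) of each gene table; all 10 were present once. The kidneys came from newborn mice of the strain B6NCrl on postnatal day 0, with no treatment and no genetic change named in the labels. Each of the 2 libraries held both kidneys of 1 pup, prepared from 10 ng of RNA longer than 200 nt by total RNA-seq, and the pups had 1 mother. The labels make them 1 group, so there was no condition to compare: values are given for pup 1 and pup 2, each mean ± SD has n = 2 littermates, and no test was made. The sex of the pups was not recorded. Depth was 41584961 expected counts (estimated reads) in pup 1 and 48823952 in pup 2.

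Endothelial cells line every vessel, hold together through junctional adhesion proteins, and differ between organs. In the kidney the capillaries around the tubules carry pores closed by a thin diaphragm, while the mature glomerular capillaries have open pores and filter the blood. At birth the mouse kidney still forms nephrons and its vessels grow with them. The 10 genes cover adhesion and junction proteins (Pecam1, Esam), a mucin of the cell surface (Emcn) and a co-receptor for growth factors (Eng). They also cover proteins of pores and membrane traffic (Plvap, Ehd3), a secreted protein (Egfl7), a lipid carrier (Fabp4) and transcription factors (Sox17, Sox18). The libraries are whole organs, so a level depends on the number of cells that carry the RNA, endothelial or other, and on the RNA in each. It is also relative to the RNA of all other cells. Fewer cells and less RNA per cell cannot be told apart.

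Egfl7 is the member whose locus holds most in these data: 19 listed transcripts, 3 annotated promoters and, inside an intron, the hairpin of miR-126, a microRNA known for its abundance in endothelium. The promoters are shown because part of the Egfl7 RNA below is assigned to transcripts that start at them. Each line gives the 250 bases before a RefSeq start on the build GRCm38.p6, 5′ to 3′. Capitals mark GGAAG, which holds the core GGAA bound by ETS factors, or its reverse complement CTTCC. The core followed by another base is not marked.
Egfl7 promoter 1, chr2:26580833-26581082, plus strand: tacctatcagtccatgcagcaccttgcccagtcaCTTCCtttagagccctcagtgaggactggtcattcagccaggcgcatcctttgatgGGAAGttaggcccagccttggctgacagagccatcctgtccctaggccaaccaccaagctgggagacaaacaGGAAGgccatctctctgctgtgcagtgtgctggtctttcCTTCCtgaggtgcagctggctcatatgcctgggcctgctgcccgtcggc
Egfl7 promoter 2, chr2:26583615-26583864, plus strand: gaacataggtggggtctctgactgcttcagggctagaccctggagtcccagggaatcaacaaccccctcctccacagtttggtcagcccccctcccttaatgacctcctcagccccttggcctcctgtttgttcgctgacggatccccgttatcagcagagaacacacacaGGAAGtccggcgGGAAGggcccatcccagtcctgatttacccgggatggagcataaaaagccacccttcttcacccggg
Egfl7 promoter 3, chr2:26586386-26586635, plus strand: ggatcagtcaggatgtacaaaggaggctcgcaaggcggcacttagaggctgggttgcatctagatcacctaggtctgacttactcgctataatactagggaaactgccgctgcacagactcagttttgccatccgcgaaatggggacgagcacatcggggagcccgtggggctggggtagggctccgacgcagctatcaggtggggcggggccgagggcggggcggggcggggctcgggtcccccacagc
The next lines show 3 mature microRNAs of this locus, also from RefSeq, with the seed, bases 2 to 8, in capitals. The mouse has a hairpin on each strand here, Mir126a on the strand of Egfl7 and Mir126b on the other.
mmu-miR-126a-3p: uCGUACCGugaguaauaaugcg
mmu-miR-126b-5p: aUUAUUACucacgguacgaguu
mmu-miR-126b-3p: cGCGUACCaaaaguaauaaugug
The 3 printed seeds all differ. The libraries were made from RNA longer than 200 nt, and Mir126a, at 73 nt, was listed with 0 counts and an effective length of 0 in both pups. Only the host gene is described from here on.

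All 10 genes were detected, meaning at least 1 TPM (a level of transcripts per length, scaled to the same total in each library) in both pups; the same held for 61.5% of 21474 protein-coding genes. Their median was 60.6 TPM in pup 1 and 55.98 TPM in pup 2, or 58.3 ± 3.27 TPM. Over the 14684 detected genes the median was 16.2 TPM in pup 1 and 15.4 TPM in pup 2. Together the 10 genes held 0.121% of all TPM in pup 1 and 0.127% in pup 2. Fabp4 alone made up 43.5% of that sum in pup 1 and 44.9% in pup 2, and without it the other 9 held 0.0681% and 0.0702%.

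**Figure D1:**
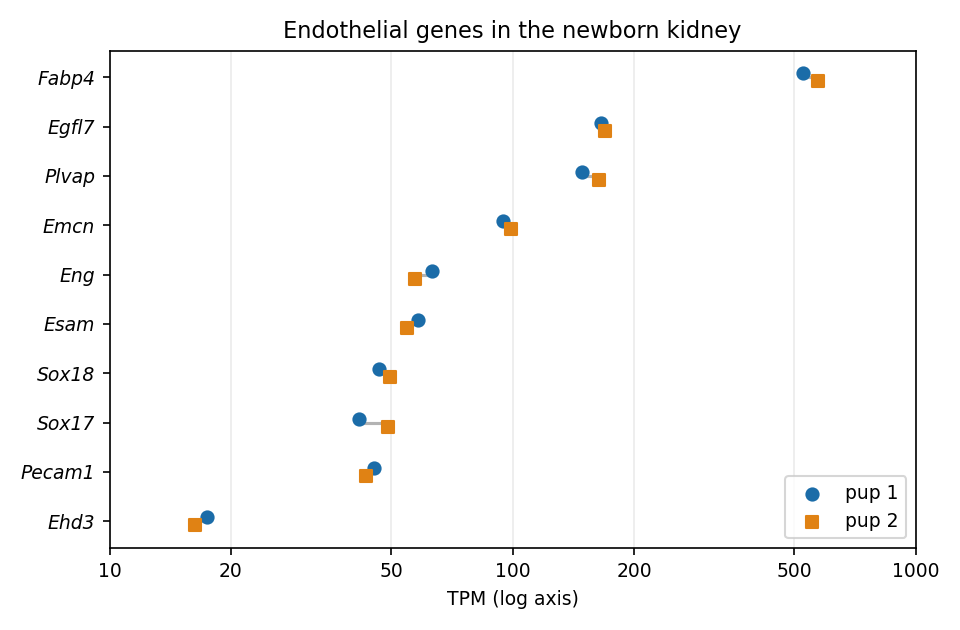
TPM of the 10 endothelial genes on a log axis, with a circle for pup 1 and a square for pup 2, sorted by the mean. Fabp4 stood at 524.55 and 572.12 TPM at the top and Ehd3 at 17.45 and 16.27 TPM at the bottom, and the pups lay close together for every gene.

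The genes fell in the order Fabp4, Egfl7, Plvap, Emcn, Eng, Esam, Sox18, Sox17, Pecam1 and Ehd3 by mean TPM, as the plot of their levels shows. From the highest to the lowest they spanned 30.1-fold in pup 1 and 35.2-fold in pup 2, a log2 difference of 5.02 ± 0.16. For 6 of the 9 neighbouring pairs in this order the ranges of the pups did not overlap. Egfl7 and Plvap only just stayed apart, since the lower Egfl7 value was 165.2 TPM and the higher Plvap value 164.03 TPM. The ranges overlapped for Eng and Esam, for Sox18 and Sox17, and for Sox17 and Pecam1. The last of these pairs even changed places between the pups, with Pecam1 above Sox17 in pup 1 and below it in pup 2.

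Pecam1, the adhesion protein CD31 found at contacts between endothelial cells and also on platelets and leukocytes, had 45.4 TPM in pup 1 and 43.31 TPM in pup 2, or 44.4 ± 1.48 TPM. By mean it was the second lowest member, although it is the one most used to stain vessels. The gene lies at chr11:106654217-106750628 on the minus strand (all gene coordinates are GRCm38, GENCODE M21). Cdh5, the cadherin of endothelial junctions, stood lower in both pups, so that Pecam1 exceeded it 1.68-fold in pup 1 and 1.55-fold in pup 2. Of 10 leukocyte markers 7 were detected, and all 10 summed to 121.38 TPM in pup 1 and 121.76 TPM in pup 2. Lyz2, the lysozyme of macrophages and neutrophils, led with 61.1 TPM in pup 1 and 60.87 TPM in pup 2, above Pecam1 in both. C1qa had 24.87 and 28.63 TPM and Csf1r had 12.59 and 10.49 TPM; the lowest was the T cell gene Cd3e at 0.05 and 0.06 TPM. Of 8 markers of platelets and megakaryocytes 3 were detected, and all 8 summed to 64.25 TPM in pup 1 and 67.35 TPM in pup 2. Most of that was Pf4, a platelet chemokine, at 50.61 TPM in pup 1 and 53.23 TPM in pup 2, followed by Itga2b at 10.0 and 10.36 TPM; Gp1bb was just above 1 TPM. Ptprc, the leukocyte surface phosphatase CD45, had 4.52 TPM in pup 1 and 4.86 TPM in pup 2. The part of blood cells in the level of Pecam1 was not tested.

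Pecam1 RNA was divided among several splice forms. The leading transcript, Pecam1-203, held 55.5% of the gene's TPM in pup 1 and 52.6% in pup 2. It has a coding sequence of 2091 nt, or 697 codons. It lacks a 57-nt coding exon, chr11:106671742-106671798, that lies near the 3′ end of the coding sequence and is the 14th of 15 exons of Pecam1-202. Pecam1-202, with that exon and 716 codons, held 27.5% in pup 1 and 25.1% in pup 2. Transcripts with the 57-nt exon together held 44.1% in pup 1 and 47.2% in pup 2 of the TPM of the transcripts compared, or 45.7% ± 2.18. Neither version of the coding end was rare in either pup. A second exon of 23 nt, chr11:106662002-106662024, was in 16.5% and 21.9%. Alternative splicing of the cytoplasmic tail of Pecam1 is known from mouse tissues as background. Pecam1-207, which also lacks a 303-nt coding exon, held 8.68% in pup 1 and 12.2% in pup 2.

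Esam, an adhesion protein of the tight junctions of endothelial cells and also of platelets, had 58.26 TPM in pup 1 and 54.77 TPM in pup 2, or 56.5 ± 2.47 TPM. It lies at chr9:37528078-37538319 on the plus strand, and 1 transcript, Esam-201, held 95.9% and 96.1% of its TPM. Among 6 related genes of cell junctions, all detected, F11r was highest, at 93.64 TPM in pup 1 and 74.34 TPM in pup 2; it encodes the junctional adhesion molecule JAM-A, which epithelial cells also carry. Jam3 and Cgnl1 came next and Igsf11 was lowest by mean at 6.87 and 5.51 TPM, beside Jam2 at 5.83 and 6.63 TPM. Esam stood above Jam3 by 1.26-fold and 1.23-fold, and above Jam2, another endothelial member, by 9.99-fold in pup 1 and 8.26-fold in pup 2.

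Emcn, the sialomucin endomucin of venous and capillary endothelium, had 94.78 TPM in pup 1 and 98.91 TPM in pup 2, or 96.8 ± 2.92 TPM, above Pecam1, Esam and Eng in both pups. It exceeded Pecam1 by 2.09-fold in pup 1 and 2.28-fold in pup 2. The gene lies at chr3:137341067-137432185 on the plus strand. Its leading transcript Emcn-201, with 248 codons, held 82.3% of TPM in pup 1 and 81.95% in pup 2. Emcn-202 held 15.8% and 16.5% and has 261 codons, because it carries a 39-nt coding exon at chr3:137403984-137404022. Transcripts with that exon held 17.7% in pup 1 and 18.0% in pup 2. The pups differed less in this exon than in either alternative exon near the end of Pecam1.

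Eng, or endoglin, is a co-receptor that binds BMP9 and BMP10 and acts with the receptor kinase ALK1; inherited loss of it in humans causes malformed, bleeding vessels. It had 62.95 TPM in pup 1 and 57.19 TPM in pup 2, or 60.1 ± 4.07 TPM, at chr2:32646595-32682669 on the plus strand. Acvrl1, the gene of ALK1, had 14.49 TPM in pup 1 and 13.37 TPM in pup 2, so that Eng exceeded its partner 4.34-fold and 4.28-fold. Of 14 genes of this pathway, 11 were detected. The 3 highest were the target genes Id3 (630.01 and 662.95 TPM), Id2 (577.37 and 586.88 TPM) and Id1 (139.74 and 154.91 TPM), which many cell types of the kidney also use. The ligand gene Tgfb1 had 2.54 TPM in pup 1 and 2.85 TPM in pup 2. The genes of the BMP ligands were under 1 TPM: Gdf2, which encodes BMP9 and was the lowest, had 0 TPM in pup 1 and 0.01 TPM in pup 2, and Bmp10 had 0.03 and 0 TPM. Both ligands are known as circulating proteins made chiefly in the liver and the heart.

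Most Eng RNA was the long form. Eng-201, with 653 codons, held 65.2% in pup 1 and 66.7% in pup 2, and Eng-205, which differs from it by 3 coding nt, held 14.0% and 16.0%. Eng-202 held 14.7% in pup 1 and 13.4% in pup 2. Its last exon of 923 nt includes 139 nt that Eng-201 lacks, 86 of them coding, and it has 641 codons. Reading through the last intron to give a shorter tail is the known structure of the short form of endoglin. By expected counts in place of TPM, Eng-202 held 14.0% in pup 1 and 12.4% in pup 2. Its count was 803 with a posterior SD of 166 in pup 1, and 818 with 220 in pup 2. The part of RNA that is not yet spliced in the share of Eng-202 was not tested. The end of Eng overlaps by 61 bp the gene Fpgs on the opposite strand, which had 29.82 TPM in pup 1 and 28.88 TPM in pup 2. Of 3 small RNA genes inside Eng, Mir1954 had 0 counts in both pups, Gm26236 had 4 and 5 counts, and Gm47291 was not analysed here.

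Plvap forms the diaphragms of endothelial pores and caveolae. It had 148.34 TPM in pup 1 and 164.03 TPM in pup 2, or 156 ± 11.1 TPM. The gene lies at chr8:71497765-71511752 on the minus strand and has 1 listed transcript, of 438 codons. Its 3′ end overlaps by 1819 bp the gene Gtpbp3 on the opposite strand, which had 12 TPM in pup 1 and 11.67 TPM in pup 2. The 1819 bp are counted on whole genes, introns included. Of the 1938 windows of 50 bases in the Plvap transcript, 0 also occur in transcripts of another gene on either strand. Whether the counting used strand is not given in the sources used here. The part of reads from Gtpbp3 RNA that is not yet spliced in the level of Plvap was not tested.

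Ehd3, a membrane traffic protein of the EHD family that marks glomerular endothelium in the mouse kidney, was the lowest of the 10. It had 17.45 TPM in pup 1 and 16.27 TPM in pup 2, or 16.9 ± 0.834 TPM, from 1842 and 2113 expected counts. The gene lies at chr17:73804134-73832094 on the plus strand and has 1 listed transcript, of 535 codons. Ehd3 still stood near the middle of all detected genes, above 51.9% of them in pup 1 and 51.5% in pup 2. Plvap exceeded it 8.50-fold in pup 1 and 10.1-fold in pup 2. The other EHD genes were all detected and all higher: Ehd4 at 61.27 and 50.58 TPM, Ehd1 at 59.12 and 51.0 TPM, and Ehd2 at 20.83 and 18.64 TPM. Ehd3 therefore held the lowest level of its family in both pups.

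Fabp4 carries fatty acids in fat cells, macrophages and the endothelium of small vessels. It had 524.55 TPM in pup 1 and 572.12 TPM in pup 2, or 548 ± 33.6 TPM, from 12773 and 17088 expected counts. It ranked 295th among all genes in pup 1 and 265th in pup 2, and stood above 98.0% and 98.2% of detected genes. The gene lies at chr3:10204088-10208576 on the minus strand, and Fabp4-201 held 99.3% and 99.35% of its TPM. Its coding sequence has 132 codons. Fabp4 exceeded the next member, Egfl7, 3.18-fold in pup 1 and 3.38-fold in pup 2.

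Fabp4 is best known from fat, so fat cell markers were read beside it. Of 10 such markers only Lipe was detected, at 5.15 TPM in pup 1 and 5.12 TPM in pup 2. Adipoq, the fat cell hormone adiponectin, had 0.14 TPM in pup 1 and 0.71 TPM in pup 2, and Retn, the next, had 0.22 and 0.46 TPM. Lep, the lowest, had 0 TPM in pup 1 and 0.01 TPM in pup 2. All 10 summed to 6.1 TPM in pup 1 and 7.19 TPM in pup 2. Of the macrophage genes in the leukocyte list, Lyz2, C1qa and Csf1r had the levels given with Pecam1, Cd68 had 10.77 TPM in pup 1 and 8.41 TPM in pup 2, and Adgre1 had 3.13 and 2.98 TPM. The part of fat cells and of macrophages in the level of Fabp4 was not tested. The fatty acid uptake gene Cd36, which capillaries use, was 39.3-fold lower than Fabp4 in pup 1 and 40.0-fold lower in pup 2.

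**Figure D2:**
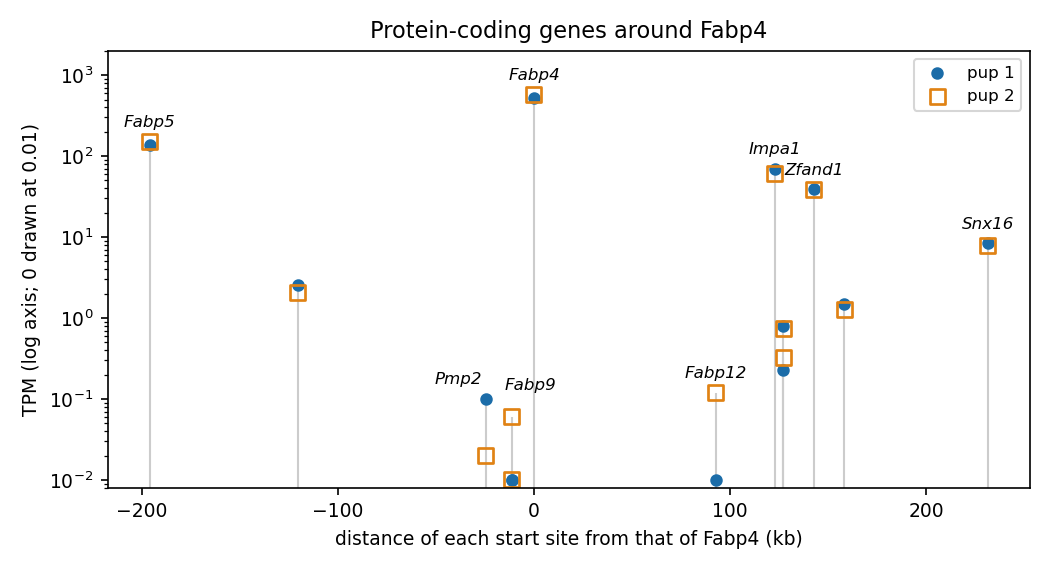
TPM on a log axis of the protein-coding genes around Fabp4, by distance in kb of their start sites from that of Fabp4, with a filled circle for pup 1 and an open square for pup 2. Pmp2, Fabp9 and Fabp12, the nearest family members, stood at 0.12 TPM or less in both pups, while Fabp5, 196 kb away, had 139.06 and 149.67 TPM.

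Fabp4 lies in a cluster of its own family, and the plot of its surroundings shows how unevenly the cluster was expressed. The nearest relatives are Fabp9, whose start is 11.3 kb from that of Fabp4, and Pmp2, at 24.6 kb on the same side. Fabp9 had 0 TPM in pup 1 and 0.06 TPM in pup 2, and Pmp2 had 0.1 and 0.02 TPM. Fabp12, 92.6 kb away on the other side, had 0 TPM in pup 1 and 0.12 TPM in pup 2. Fabp5, the epidermal fatty acid-binding protein, lies 196 kb away and had 139.06 TPM in pup 1 and 149.67 TPM in pup 2, so Fabp4 exceeded it 3.77-fold and 3.82-fold. Of the 9 other family members in the list, wherever they lie, 4 were detected. Fabp3, the heart form and highest of them, had 449.4 TPM in pup 1 and 431.6 TPM in pup 2, close to Fabp4, which exceeded it 1.17-fold and 1.33-fold. Fabp7 followed Fabp5 at 5.3 and 4.08 TPM. The lowest of the 9 was Fabp9.

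Egfl7 is a protein that endothelial cells secrete into the vessel wall. It had 165.2 TPM in pup 1 and 169.27 TPM in pup 2, or 167 ± 2.88 TPM, second among the 10. It exceeded Pecam1 3.64-fold in pup 1 and 3.91-fold in pup 2. The gene lies at chr2:26580014-26593120 on the plus strand. Its last bases overlap by 64 bp the gene Agpat2 on the other strand, which had 44.41 TPM in pup 1 and 45.72 TPM in pup 2. The model Gm20532 on the same strand, which overlaps 6482 bp of the locus, had 0 counts in both pups. Of the 50-base windows in Egfl7 transcripts, 4.94% also occur in transcripts of other genes on the same strand.

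Promoter 2 led among the 3 printed above. Transcripts that start within 50 bases of its RefSeq start, Egfl7-201, Egfl7-202 and Egfl7-204, held 37.8% of Egfl7 TPM in pup 1 and 39.9% in pup 2, or 38.8% ± 1.48. Promoter 3 had 8.55% in pup 1 and 5.42% in pup 2, and promoter 1 had 1.95% and 2.16%. The order of the 3 was the same in both pups. The remaining 12 transcripts, which start more than 50 bases from any of these, held 51.7% in pup 1 and 52.6% in pup 2. Many of those are short fragments or transcripts with a retained intron, which count for more in TPM than in reads because TPM is per length: by expected counts they held 31.4% and 31.7%, and promoter 2 held 55.4% in pup 1 and 59.0% in pup 2.

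The printed windows also differ in composition. Promoter 1 holds the letters GGAAG on either strand at 4 places, promoter 2 at 2 places, 79 and 67 bases before the start, and promoter 3 at none. Promoter 3 is the richest in CpG, with 17 in its 250 bases, against 7 in promoter 2 and 3 in promoter 1; the median over all promoter windows was 6. Windows for Emcn and Eng each held the letters at 2 places, and the window of Ehd3 held none. Of all 32851 mouse promoter windows of this length, 64.1% hold them, so their presence is common. Other letters were searched on both strands too, and none was in any of the 6 member windows. These were ACAATG, bound by SOX factors and present in 10.7% of all windows. The TATA box letters TATAAA were in 12.4% of all windows. The last, AGATAA for zinc finger factors of the Gata family, were in 9.99%. A match of letters is not a binding site, and no match says only that these letters are not in the window. Other letters that the same factors can bind, such as GGAA followed by another base, were not searched.

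Egfl7-202 led in both pups, with 29.8% of TPM in pup 1 and 30.6% in pup 2. It has 10 exons, and the Mir126a hairpin, chr2:26591357-26591429, lies in its intron 7, which is 600 nt long. Egfl7-213, a single exon with retained intron sequence, held 14.6% in pup 1 and 15.3% in pup 2, and Egfl7-203 held 12.4% and 12.95%. Retained-intron transcripts together held 25.3% of Egfl7 TPM in pup 1 and 26.9% in pup 2, and 16.7% and 17.6% of its expected counts. The next highest sum by TPM was 3.87% and 4.62% for Sox17, while it was 2.02% and 1.89% for Esam and 1.09% and 0.17% for Eng. Of the 536 nt of Egfl7-213, 137 are absent from Egfl7-202, so reads from the rest of it fit both. Total RNA-seq also reads RNA that is not yet spliced; its part in these shares was not tested. The transcripts that encode the full 278 codons held 40.1% of TPM in pup 1 and 37.4% in pup 2, and 56.9% and 54.5% of expected counts.

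**Figure D3:**
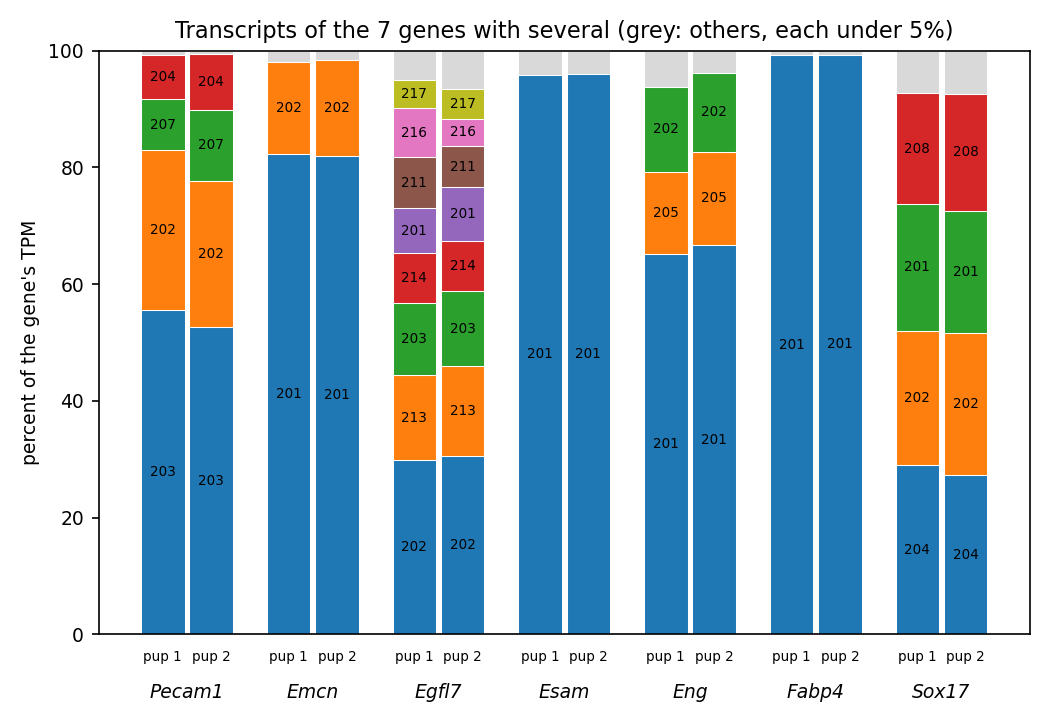
Share of each gene's TPM held by its transcripts, in percent, for the 7 genes with more than 1 listed transcript, with pup 1 left of pup 2; numbers are transcript suffixes and grey is the sum of transcripts under 5%. Esam and Fabp4 were nearly all 1 transcript, while Egfl7 and Sox17 were split among several, and the leading transcript was the same in both pups for all 7.

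Across the list, 54 transcripts are annotated for the 10 genes, as the plot of transcript shares shows for 7 of them. Plvap, Ehd3 and Sox18 have 1 each. In the other 7 the leading transcript by TPM was the same in both pups; over all detected genes with several transcripts this held for 92.6% of 10080. By TPM the genes divide into those with 1 dominant form (Fabp4, Esam, Emcn), those with a leader at 52.6% of TPM or more and clear lesser forms (Eng, Pecam1), and those whose leader held 30.6% or less (Egfl7, Sox17). By expected counts the leader of Egfl7, the same transcript, held 43.7% in pup 1 and 45.5% in pup 2, and that of Sox17 was another transcript, as given with Sox17. Emcn did not stand apart from Eng by counts. Emcn-201 held 69.4% of them in pup 1 and 69.0% in pup 2, and Eng-201 held 70.4% in each. Such shares are model estimates, since most reads fit several transcripts of a gene.

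Sox17 and Sox18 belong to the SoxF group of transcription factors, with Sox7, and act together in vessel growth; Sox17 is known for arteries. Sox18 had 46.64 TPM in pup 1 and 49.67 TPM in pup 2, or 48.2 ± 2.14 TPM. Sox17 had 41.52 TPM in pup 1 and 48.91 TPM in pup 2, or 45.2 ± 5.23 TPM, with the largest SD relative to the mean of the 10 genes. Sox7 was far lower, at 5.77 TPM in pup 1 and 6.58 TPM in pup 2. Sox18 exceeded it 8.08-fold in pup 1 and 7.55-fold in pup 2, and Sox17 exceeded it 7.20-fold and 7.43-fold. Sox18 lies at chr2:181669836-181671640 and Sox17 at chr1:4490931-4497354, both on the minus strand.

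Sox17 RNA was divided among 4 transcripts at more than 10% each. Sox17-204, which holds only an incomplete coding sequence, led by TPM with 28.9% in pup 1 and 27.3% in pup 2. By expected counts it held 13.1% and 12.4%, and Sox17-201 led with 39.9% in pup 1 and 38.8% in pup 2. Sox17-201 and Sox17-202 encode the same full length of 419 codons, and together they held 44.7% in pup 1 and 45.3% in pup 2. The same pair held 59.8% and 59.9% of expected counts. Sox17-208, at 19.1% in pup 1 and 20.0% in pup 2, has a coding sequence of 291 codons that is the 3′ part of the full one and lacks its first 128 codons. A shorter Sox17 protein without most of the DNA-binding HMG box is known from the mouse testis. Sox17 also overlaps by 804 bp the transcript Gm37587 on the opposite strand, which had 0.39 TPM in pup 1 and 0.5 TPM in pup 2. On either strand, 15.0% of the 50-base windows of Sox17 lie in Gm37587 too, and on the same strand none are shared with another gene.

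The pups were then set beside each other for the 10 genes. The measure is the log2 ratio of pup 1 over pup 2 of CPM (expected counts over the library total, not per length) + 0.1, scaled by TMM, a method that centres most genes. Genes entered it when either library gave them 50 expected counts or more. None of the 10 was past 2-fold; 89 of 15150 genes were, a background of 0.587%. The 95% binomial interval of the ratio, which covers counting error only, was without 0 for 6 of 10 members, against a background of 40.3% of genes. Those 6 were Fabp4, Egfl7, Plvap, Emcn, Sox18 and Sox17, all on the side of pup 2. The interval narrows as counts rise, and every member had 1842 counts or more in each pup. The background includes genes with far fewer, down to 50, so the share of members and that of all genes are not matched for counts. Sox17 differed most, at −0.32 with an interval of −0.40 to −0.24; its ratio was larger in size than that of 90.1% of genes. Plvap followed at −0.24, Fabp4 at −0.21, Sox18 at −0.18, Emcn at −0.16 and Egfl7 at −0.11. Pecam1 at −0.02, Esam at −0.00, Ehd3 at 0.01 and Eng at 0.01 stood at about 0. On the deposited TPM the log2 ratio of Eng was 0.14, and the median over all genes on that scale was 0.08.

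**Figure D4:**
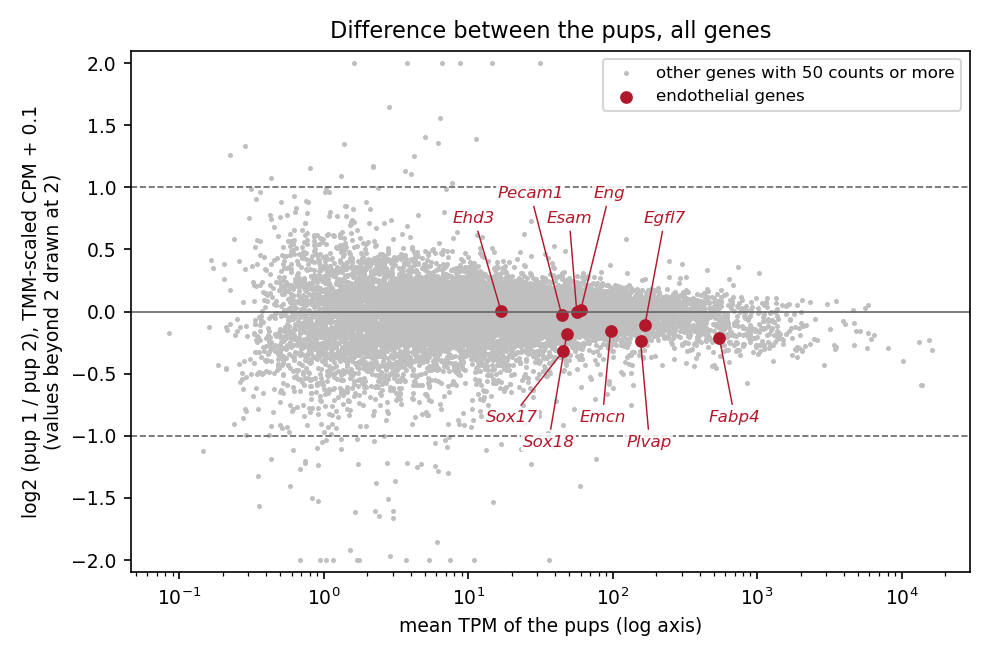
The log2 ratio of pup 1 over pup 2 of TMM-scaled CPM + 0.1 against the mean TPM on a log axis, for all genes with 50 expected counts or more in 1 pup at least (grey) and the 10 endothelial genes (red); dashed lines mark 2-fold. The endothelial genes lay between −0.32 (Sox17) and 0.01 (Eng), inside the cloud of other genes.

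By this scaling 8 of 10 members stood higher in pup 2, against a background of 51.7% of genes, and 2 stood higher in pup 1, against 48.3%, as the plot of ratios shows. The direction depends on the scaling: with library totals or with the deposited TPM 6 were higher in pup 2, and with the ERCC spike-ins, synthetic RNAs added to each sample, all 10 were higher in pup 1. Of all genes, 44.8% were higher in pup 2 with library totals, 31.1% with the deposited TPM and 4.61% with the spike-ins. The spike-ins gave only 307 counts in pup 1 and 469 in pup 2, and moved the median of all genes to 0.40. Under TMM the members' median was −0.13, against −0.01 for all genes. Library totals and spike-ins shift every gene by nearly the same amount, so they could not change the distance between these medians. On the deposited TPM, which is per length, the members' median lay −0.13 from that of all genes. The median size of the ratio was 0.13 for the members, 0.10 over all genes and 0.08 over the 8924 tested genes at 10 to 1000 TPM, where every member lies. The 95th percentile of size among those 8924 genes was 0.29, and Sox17 alone of the 10 was past it. With 2 pups, a difference between animals and one between libraries cannot be told apart.

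**Figure D5:**
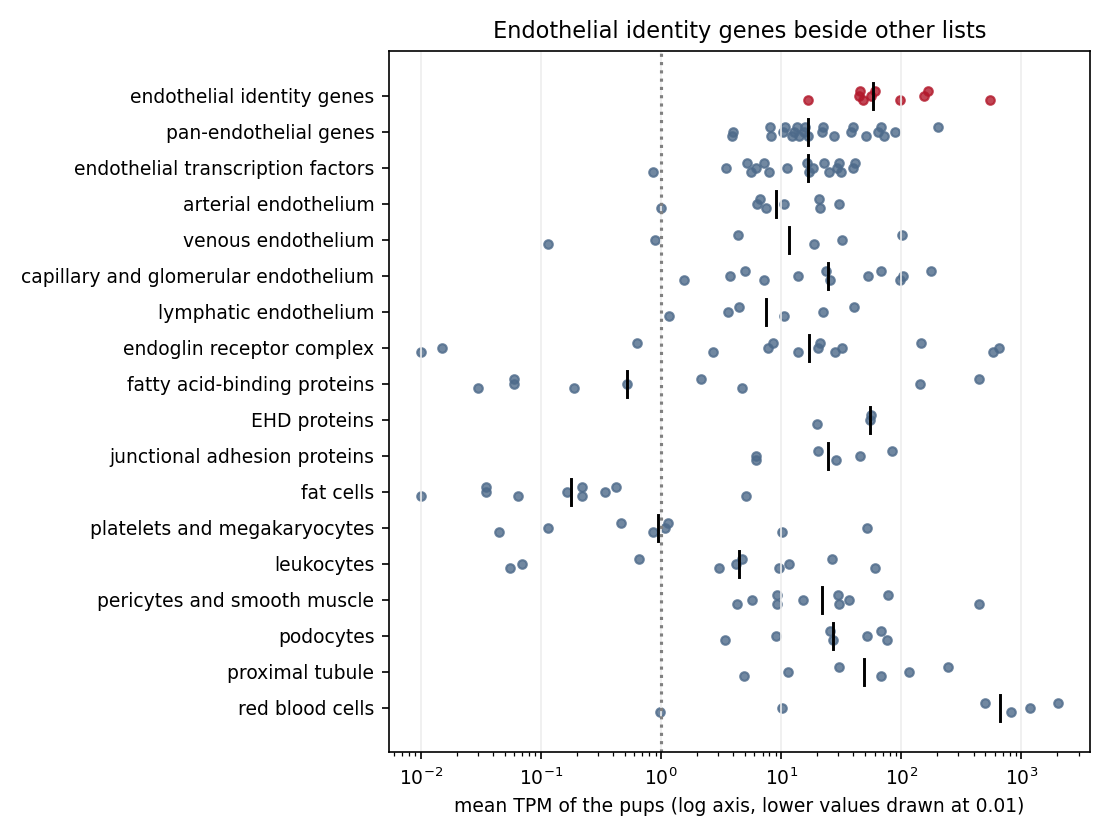
Mean TPM of the pups on a log axis for the endothelial identity genes (red) and the genes of 17 other lists (blue), 1 point a gene, with a black bar at the list's median and a dotted line at 1 TPM. The endothelial identity genes had a median of 58.3 TPM, against 16.8 TPM for 24 other pan-endothelial genes, and only Lipe among the fat cell genes lay above 1 TPM.

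Other genes listed as endothelial were read beside the 10, as the plot of lists shows. The libraries are whole kidneys, and the part of other cell types in these levels was not tested. All 24 further pan-endothelial genes were detected. Their median was 17.3 TPM in pup 1 and 16.4 TPM in pup 2, under that of the 10 members. The highest were Ramp2, a receptor-associated protein, at 202.47 and 200.59 TPM, the claudin Cldn5 at 93.17 and 85.4 TPM and the surface mucin Cd34 at 75.14 and 67.55 TPM, and the lowest was Vwf, the clotting protein of larger vessels, at 4.22 and 3.55 TPM. Podxl stands in this list and in that of podocytes. Of 18 endothelial transcription factors 17 were detected, led by Ets2 (42.56 and 40.44 TPM), Ets1 (41.33 and 38.39 TPM) and Lmo2 (28.11 and 34.98 TPM); Tal1, a factor of blood and vessel precursors, was lowest at 0.85 and 0.86 TPM. Sox18 stood above all 18 in both pups, and Sox17 did so in pup 2 alone.

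Genes listed for the vessel types were read next, and the part of other cell types in their levels was not tested either. Of 12 capillary and glomerular genes all were detected, with a median of 25.5 TPM in pup 1 and 23.6 TPM in pup 2. Igfbp3 was highest at 179.14 and 176.11 TPM, ahead of Car4 and Plat, and Gata5, a factor of glomerular endothelium, was lowest at 1.57 and 1.54 TPM. Of 8 arterial genes 7 were detected, with a median of 9.44 TPM in pup 1 and 8.70 TPM in pup 2; Hey1, Gja4 and Efnb2 led, and Bmx was lowest at 0.96 and 1.05 TPM. Of 6 venous genes 4 were detected, with a median of 12.2 TPM in pup 1 and 10.8 TPM in pup 2, led by Nr2f2, Ephb4 and Vcam1, while Ackr1, a marker of venules, had 0.13 and 0.1 TPM. Nr2f2 had 101.87 TPM in pup 1 and 103.15 TPM in pup 2 and is also used by mesenchymal cells. All 6 lymphatic genes were detected, with a median of 7.47 TPM in pup 1 and 7.55 TPM in pup 2, from Pdpn, which podocytes also carry, at 40.74 and 39.85 TPM, through Ccl21a and Reln, to Prox1, the defining lymphatic factor, at 1.25 and 1.06 TPM.

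Other cells of the kidney were present too. All 10 genes of pericytes and smooth muscle were detected, led by Acta2 (490.54 and 405.8 TPM), Tagln and Rgs5, with Abcc9 lowest at 4.17 and 4.46 TPM. All 7 podocyte genes were detected, among them Wt1 (77.07 and 76.33 TPM) and Podxl (68.68 and 68.29 TPM). All 6 proximal tubule genes were detected, led by Slc34a1 (286.51 and 202.73 TPM), Aqp1 and Slc22a6, with Slc5a2 lowest. By TMM all 6 stood higher in pup 1, against a background of 48.3% of genes. The counting intervals of Lrp2, Aqp1 and Slc5a2 included 0. Red cell genes were led by Hba-a2 at 2081.39 and 1954.27 TPM, followed by Hbb-bs and Hba-a1. No gene of the 17 lists that had enough counts was past 2-fold between the pups.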

How the data were processed

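Total RNA-seq was measured in both kidneys of each of 2 pups. For each library the authors deposited 1 table of genes and 1 of transcripts, on mm10 with GENCODE M4 per the text that came with it. Per the file headers, the expected count is an estimate of reads without any normalization. The authors computed TPM and FPKM per length and library. Their deposited transcript tables state for each transcript its percent of the gene's TPM. A score, per the file headers, is a bound of the TPM interval or the posterior SD of the count. The aligner, its version and the strand setting: not given in the sources used here.

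The members and all gene lists were chosen with earlier results of these data known. In each list the 3 genes of highest mean TPM and the lowest were named, with every member of the 10; a few genes so named are not reported here; genes such as Cdh5, Ptprc, Acvrl1, Bmp10, Jam2, Sox7, Cd36 and Adgre1 serve as comparisons of a member or were named after their values were seen. Names came by identifier from GENCODE M21 (42462 named, 884 not). RefSeq promoters matched 4 members (6 windows); the other members' promoters and all proteins were not used here. Expected counts were rounded for TMM factors (edgeR 4.0.16, R 4.3.3; factors 1.009 and 0.991) and DESeq2 1.42.0 size factors. Counting intervals are exact binomial at 95%. A count of 0 allows 3 counts, or 0.0721 and 0.0614 CPM. Python 3.11.15 was used. The steps were tested on simulated data. Alternatives covered unit, denominator, scaling, pseudocount, filter and each pup left out. With 2 littermates no p-value was computed.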

Additional observations from a re-analysis of the deposited data

How the results depend on the processing

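The posterior mean TPM left the median level at 57.75 TPM. That level was 42.5 in FPKM and 67.97 TPM when rescaled to protein-coding genes, where the share of TPM was 0.145%. With spike-in totals the median log2 ratio of pup 1 over pup 2 was 0.27, and the ratios of 8 genes changed sign, to 0.17 for Plvap, 0.25 for Emcn, 0.30 for Egfl7, 0.19 for Fabp4, 0.083 for Sox17, 0.22 for Sox18, 0.38 for Pecam1 and 0.40 for Esam; the cause was not tested. Pecam1 and Esam, at about 0, also changed sign with library totals and with deposited TPM. Of 70 ratios recomputed for single genes, 50 stayed inside the gene's counting interval. The 10 with the lower count minimum and the 10 with no filter were bound to stay, since a filter does not change a member's ratio. All that left the interval did so with spike-in totals or deposited TPM. Of 7 leading transcripts 6 moved by more than the spread between the pups when counts replaced TPM. No member passed 2-fold under any scaling, pseudocount or filter tried, while the number of all genes past it, 89, was 38 with CPM + 1, 385 with a minimum of 10 expected counts and 638 with no filter. Leaving out a pup, which with 2 pups only returns the other one's value, gave 10 detected genes either way, a median level of 55.98 to 60.6 TPM, a share of 0.121% to 0.127% and a log2 span of 4.91 to 5.14. No paired analysis was possible because the labels give 1 group. The lowest member had 1842 counts, and 2 littermates show no variation between litters.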
